A study of Mus musculus with 12 samples.

Results

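Mouse cells carrying both a SOX17 and a T (Brachyury) reporter were compared with cells sorted for either reporter, to ask which transcripts of the double-positive cells lie beyond both single-positive populations and which could come from a mixture of both. The comparison rests on 3 SOX17+/T+ libraries, 3 T+ libraries and 3 SOX17+ libraries out of the 12 libraries of the series. Genes with at least 1 TPM (a length-scaled share of the transcripts of a library) in at least 3 of the 12 libraries were compared, which were 16097 of the 54446 genes in the table. The mean of the SOX17+/T+ libraries was set against the midpoint of the T+ and SOX17+ means, once on the log2(TPM + 1) scale and once on the linear TPM scale on which RNA of 2 populations would average. The log2 scale understates changes of genes near or under 1 TPM. A gene was called beyond both groups where it passed the test in the same direction against T+ and against SOX17+.

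T is a T-box transcription factor switched on in the primitive streak, the region through which epiblast cells leave to form mesoderm and definitive endoderm. SOX17 is an HMG-box factor that definitive endoderm needs, and it is also made in extraembryonic endoderm and in blood-forming endothelium. In differentiating embryonic stem cells the pair is used to follow the step from streak to endoderm.

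All groups derive from the E14 mouse embryonic stem cell line. The SOX17+/T+, T+ and SOX17+ cells are differentiated progeny, brought into suspension with TrypLE and sorted by their reporters, and the mESC group is the undifferentiated line, kept with serum and LIF on irradiated embryonic fibroblasts. The sources used here give neither the differentiation protocol and its duration nor the reporter constructs and sort gates, so whether the single-positive gates left out double-positive cells is not known. Whether replicates are separate cultures is not labelled, and every p-value therefore measures only library-to-library spread, which may be technical. The table holds TPM only, so the depth behind a value is unknown. Mitochondrially encoded transcripts took 6.14 to 6.93% of the TPM in SOX17+/T+, 6.34 to 6.82% in T+ and 5.71 to 6.18% in SOX17+ libraries. Between 13953 and 14047 genes reached 1 TPM in SOX17+/T+ libraries, between 14040 and 14060 in T+ and between 13979 and 14111 in SOX17+.

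Both reporter genes were present in the double-positive libraries at levels between those of the single-positive groups. Their reporters were used for the sort, so the presence of both is no separate result. T (chromosome 17, 8434423 to 8442496 in GRCm38) stood at 44.5 ± 15.3 TPM in SOX17+/T+, 127 ± 33.1 TPM in T+ and 2.32 ± 0.493 TPM in SOX17+ libraries (SD, n = 3 each). Sox17 (chromosome 1, 4490931 to 4497354) stood at 139 ± 13.8 TPM in SOX17+/T+, 10.3 ± 2.5 TPM in T+ and 229.9 ± 16.7 TPM in SOX17+. Other markers of both kinds were there too. The endoderm factor Foxa2 stood at 59.8 TPM in SOX17+/T+, 26.2 in T+ and 83.5 in SOX17+. The mesoderm factor Mesp1 stood at 25.4 TPM in SOX17+/T+, 78.2 in T+ and 0.94 in SOX17+. Among the chosen markers, Cxcr4 of endoderm was higher in T+ (65.1 TPM) than in SOX17+ (37.2 TPM), with 53.4 TPM in SOX17+/T+. Eomes of the streak was lower in T+ (5.43 TPM) than in SOX17+ (10.9 TPM), with 13.1 TPM in SOX17+/T+. In RNA from a sorted population, fewer cells of a type and less RNA per cell cannot be told apart, and transcripts of both kinds do not show that 1 cell held both.

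On the log2 scale, 713 genes (4.43% of those tested) were higher in SOX17+/T+ than the midpoint and 876 (5.44%) were lower. On the linear scale the numbers were 311 (1.93%) and 896 (5.57%). The scales need not give equal numbers, since the midpoint of 2 unequal TPM values lies above the midpoint of their logarithms. Of the 713 genes, 72 were no further above the log2 midpoint than an equal pool of both means would be, and 640 were above the linear midpoint, called or not. The log2 fit used 12 libraries and the linear fit 9, and with 9 the log2 count of higher genes was 531. Of the 713 genes higher on the log2 scale, 295 were also higher on the linear scale, 406 were not called there and 12 were lower. Between the single-positive means lay 383 of the 713, so that some weighting of the means gives their level. Among the 876 genes lower on the log2 scale, 633 were lower on the linear scale as well. The median difference over all genes was -0.02 on the log2 scale. Quantile normalization turned the log2 split round, to 932 genes higher and 735 lower. Median-of-ratios scaling did so too, to 843 higher and 748 lower, while its linear split was 382 higher and 809 lower. Without SOX17+/T+ replicate 1 there were 372 higher and 460 lower on the log2 scale and 125 and 365 on the linear scale, and without replicate 2 there were 458 and 430 and 168 and 336. Without replicate 3 the linear count of lower genes was 532.

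Ptgds, a prostaglandin D synthase, shows how the scales part. It stood at 89.6, 89.6 and 79.6 TPM in SOX17+/T+, 252, 265 and 238 TPM in T+ and 3.85, 3.52 and 2.64 TPM in SOX17+ libraries. The groups did not overlap, and the double-positive values lay far from both. Against the midpoint Ptgds was higher by 1.40 ± 0.12 on the log2 scale (adjusted p = 3.8e-05) and lower on the linear scale, by a relative difference of -0.36 ± 0.04 (adjusted p = 0.0015), where differences are given in units of the gene's mean over the 9 sorted libraries. The same reversal was seen for Aldh1a2, which makes retinoic acid, at 65.4, 55.9 and 61.3 TPM in SOX17+/T+, 292, 256 and 262 TPM in T+ and 4.77, 3.61 and 4.78 TPM in SOX17+ (log2 0.70 ± 0.09, relative linear -0.68 ± 0.06). With a pseudocount of 10 its log2 difference was not called (adjusted p = 0.072). Of the 12 genes called in opposite directions, the claudin Cldn7 of tight junctions is another (76 ± 5.06 TPM in SOX17+/T+, 11 ± 0.855 TPM in T+ and 182 ± 2.54 TPM in SOX17+; log2 0.72, relative linear -0.23).

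A pool of T+ and SOX17+ RNA has 1 weight for all genes, so the weight each gene needs was computed from its means. The weight of SOX17+ is 0 where the SOX17+/T+ level equals that of T+ and 1 where it equals that of SOX17+, and it is a share of RNA, not of cells. Over the 1392 genes that differ at least 2-fold between the single-positive groups, the best weights were 0.448, 0.427 and 0.405 for SOX17+/T+ replicates 1, 2 and 3. Genes did not need the same weight. Among those with at least 10 TPM in the higher group, the 397 genes higher in SOX17+ needed a median of 0.387 (quartiles 0.264 to 0.492) and the 293 genes higher in T+ a median of 0.562 (quartiles 0.431 to 0.657). The difference was seen in each library, with medians of 0.418, 0.360 and 0.349 for SOX17+ genes and 0.578, 0.577 and 0.533 for T+ genes. At the median both kinds of gene thus lay nearer to their low group than the common weight puts them, and 482 of the 690 were below the linear midpoint. On the log2 scale the median position was 0.545 for SOX17+ genes and 0.395 for T+ genes. Leaving out any 1 of the 9 libraries gave medians of 0.370 to 0.396 for SOX17+ genes and 0.545 to 0.576 for T+ genes.

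**Figure D1:**
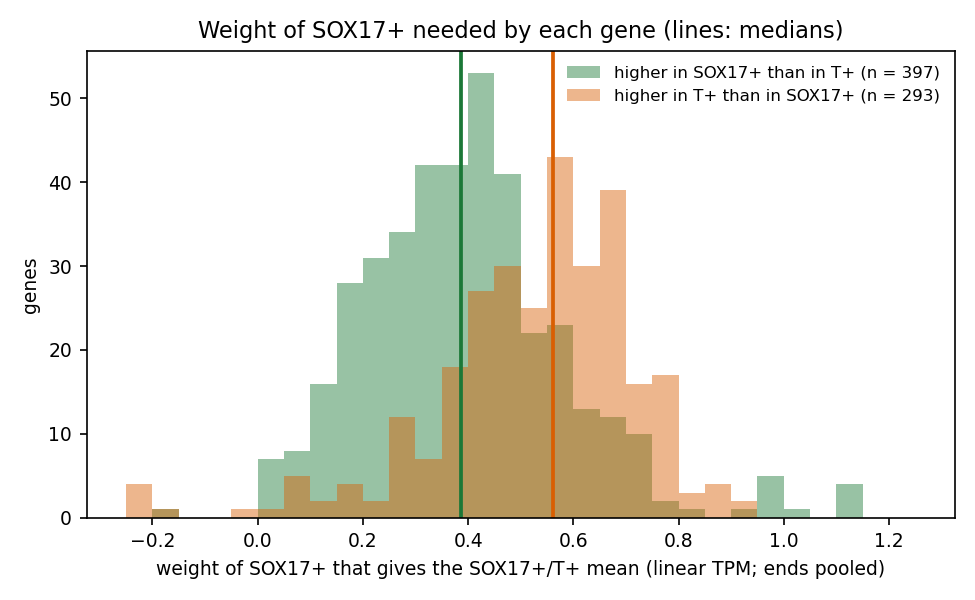
Number of genes (vertical axis) by the weight of SOX17+ RNA that gives the SOX17+/T+ mean on the linear TPM scale (horizontal axis), for genes that differ at least 2-fold between T+ and SOX17+ and reach 10 TPM. Vertical lines mark the medians, 0.387 for the 397 genes higher in SOX17+ (green) and 0.562 for the 293 genes higher in T+ (orange), so the 2 distributions are shifted against each other.

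Set against the best single weight of 0.427, 303 genes (1.88%) were higher in SOX17+/T+ than that mixture and 792 (4.92%) were lower. These counts were 110 and 276 without SOX17+/T+ replicate 1 and 165 and 279 without replicate 2, the lower count was 487 without replicate 3, and the higher count was 196 without T+ replicate 1. Named genes on the low side included Spink1, a secreted protease inhibitor, Ttr, the thyroid hormone carrier, and Folr1, a folate receptor. Folr1 stood at 0.688, 0.915 and 0.89 TPM in SOX17+/T+, 0.138, 0.305 and 0.198 TPM in T+ and 11.6, 11.4 and 12.3 TPM in SOX17+ libraries, and Spink1 at 64.8 ± 8.48 TPM in SOX17+/T+, 10.4 ± 2.6 TPM in T+ and 663 ± 16.9 TPM in SOX17+. On the linear scale both genes lay near T+, with weights of 0.053 and 0.083, but on the log2 scale Spink1 lay near the middle, at a position of 0.432 from T+ to SOX17+, against 0.175 for Folr1, and Spink1 was not called against the log2 midpoint. From the T+ side, Lefty2, a NODAL inhibitor, stood at 3.3 ± 0.95 TPM in SOX17+/T+, 21.3 ± 3.85 TPM in T+ and 0.225 ± 0.0637 TPM in SOX17+, and the presomitic mesoderm factors Tbx6 at 5.38 ± 1.09 TPM in SOX17+/T+, 25.2 ± 5.33 TPM in T+ and 0.782 ± 0.284 TPM in SOX17+ and Msgn1 at 11.1 ± 1.79 TPM in SOX17+/T+, 51.8 ± 11.1 TPM in T+ and 0.213 ± 0.27 TPM in SOX17+. Their weights were 0.854, 0.812 and 0.788.

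Gene lists differed in the weight their members need. Over all genes that differ 2-fold, at any level, the median was 0.348 for those higher in SOX17+ (quartiles 0.231 to 0.478). For those higher in T+ it was 0.588 (quartiles 0.467 to 0.698). All 14 paraxial mesoderm genes, which are high in T+, lay between the single-positive means, and their weights ran from 0.591 to 0.978 with a median of 0.759. Lying between is usual for genes that differ 2-fold. Of all 1392 such genes, 15 needed a weight under 0 and 15 a weight over 1. The summed level of the list was 116 to 130.3 TPM in SOX17+/T+, 366 to 417 TPM in T+ and 15.2 to 17.2 TPM in SOX17+ libraries. Mesp1, which starts cardiac and paraxial mesoderm, stood at 26.7, 25.7 and 23.9 TPM in SOX17+/T+, 88.8, 84.7 and 61.2 TPM in T+ and 1.46, 0.719 and 0.641 TPM in SOX17+ (log2 difference from the midpoint 1.11 ± 0.14, adjusted p = 0.00045). The groups did not overlap, and the double-positive level was about the same in each library. Of the 14 genes, 4 were higher than the midpoint on the log2 scale (Mesp1, Rspo3, Msgn1 and Dll3), against 4.43% of all genes. On the linear scale 3 were lower (the NOTCH ligand Dll1, the protocadherin Pcdh19 and the segmentation factor Mesp2), against 5.57%. With a pseudocount of 10 the log2 counts were 1 higher and 4 lower, Mesp1 was no longer called (adjusted p = 0.17) and Msgn1 turned to -0.24. The linear count was 1 without any 1 of the SOX17+/T+ libraries, 5 without T+ replicate 2 and 7 without T+ replicate 3. Axial progenitor genes needed a median of 0.837 over 7 genes, with Sox2 at 1.33 ± 0.122 TPM in SOX17+/T+, 4.33 ± 0.453 TPM in T+ and 0.975 ± 0.443 TPM in SOX17+. Primitive streak genes needed 0.663 over 9 and retinoic acid genes 0.662 over 8, both within the quartiles of all genes higher in T+. The primitive streak median is the weight of T itself, whose reporter was used for the sort, so it is no separate result.

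**Figure D2:**
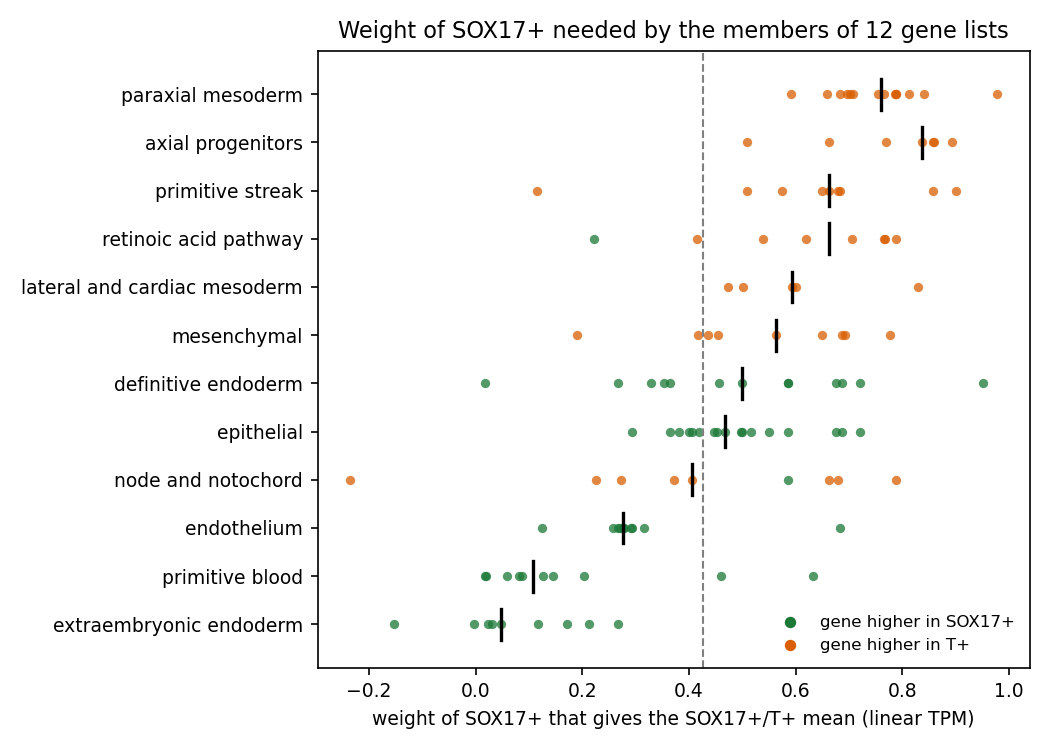
Weight of SOX17+ RNA that gives the SOX17+/T+ mean on the linear scale (horizontal axis) for the members of 12 lists (rows) that differ at least 2-fold between T+ and SOX17+. Each point is a gene, coloured by the group in which it is higher. Black bars are list medians and the dashed line is the common weight of 0.427. Paraxial mesoderm genes lie to its right and most blood and extraembryonic endoderm genes to its left. Over all genes that differ 2-fold, the median is 0.588 for those higher in T+ and 0.348 for those higher in SOX17+.

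Epithelial genes, all 17 higher in SOX17+, lay around the common weight. All genes that are 2-fold higher in SOX17+ had a median of 0.348 (quartiles 0.231 to 0.478). The epithelial members needed a median of 0.468 (range 0.293 to 0.722). All lay between the single-positive means, as nearly all genes that differ 2-fold do. Krt8 and Krt18, the keratins of simple epithelia, needed the most of these, 0.722 and 0.676, and were higher than the midpoint on both scales. Krt8 stood at 525, 534 and 524 TPM in SOX17+/T+, 149.6, 201 and 189.8 TPM in T+ and 683, 653 and 650.0 TPM in SOX17+ libraries (log2 0.62 ± 0.08, relative linear 0.23 ± 0.03), with no overlap of the groups. Cdh1, the epithelial cadherin, needed 0.499 and the adhesion protein Epcam 0.365, with 105 ± 5.34 TPM in SOX17+/T+, 33.6 ± 1.95 TPM in T+ and 229 ± 9.13 TPM in SOX17+. Over the list 13 genes were higher on the log2 scale, against 4.43% of all genes. Only 2 were higher and 4 lower on the linear scale, against 1.93% and 5.57% of all genes. The list's median difference was 0.43 on the log2 scale against a relative linear difference of -0.056. The direction of the list thus differed between the scales.

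Definitive endoderm genes were spread widely, from 0.017 to 0.951 around a median of 0.499. At the top was Trh, thyrotropin-releasing hormone, with 416, 297 and 508 TPM in SOX17+/T+, 27.8, 24.1 and 45.9 TPM in T+ and 469, 355 and 455 TPM in SOX17+ (log2 1.77 ± 0.22, adjusted p = 0.0019). Its double-positive libraries overlapped those of SOX17+ and stood above all of T+. At the bottom was the gut peptide Pyy, at 0.631, 0.895 and 0.537 TPM in SOX17+/T+, 0.499, 0.758 and 0.414 TPM in T+ and 8.27, 8.02 and 8.59 TPM in SOX17+ (log2 -1.17 ± 0.08, adjusted p = 6.2e-06), where double-positive and T+ libraries overlapped. Cer1, a secreted inhibitor of NODAL, had 8.69, 6.72 and 27.3 TPM in SOX17+/T+, 1.42, 1.17 and 7.24 TPM in T+ and 1.84, 0.787 and 4.89 TPM in SOX17+ libraries, high in replicate 3 of every group. Its groups overlapped, and it was not called on either scale (log2 1.96 ± 0.58, adjusted p = 0.071). The forkhead factors Foxa1 and Foxa3 needed 0.329 and 0.353 and were lower than the linear midpoint, while Foxa2 needed 0.585 and was not called. Nkx2-1, a factor of thyroid and lung endoderm, was lower on both scales at 1.51 ± 0.413 TPM in SOX17+/T+, 0.172 ± 0.0346 TPM in T+ and 14.4 ± 0.656 TPM in SOX17+. Eomes, a T-box factor upstream of Sox17, was higher than the midpoint on the log2 scale (0.68 ± 0.18, adjusted p = 0.039) but not on the linear one, at 14.7, 9.51 and 14.9 TPM in SOX17+/T+, 6.23, 4 and 6.05 TPM in T+ and 11.7, 7.98 and 13.2 TPM in SOX17+, where double-positive and SOX17+ libraries overlapped. The Eomes call was lost without SOX17+/T+ replicate 1 (adjusted p = 0.15), without replicate 3 (0.13) and in 6 other alternatives.

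The extraembryonic endoderm and primitive blood lists had low median weights. Extraembryonic endoderm genes needed a median weight of 0.048 over 9 genes. Of the 13 tested, 7 were lower than the midpoint on the log2 scale and 9 on the linear scale, against 5.44% and 5.57% of all genes. Apoe, a lipoprotein of the same list, was not called on the log2 scale, at 764 ± 60.1 TPM in SOX17+/T+, 501 ± 51 TPM in T+ and 917 ± 25.6 TPM in SOX17+. Ttr stood at 4.89, 4.91 and 4.26 TPM in SOX17+/T+, 0.735, 1.06 and 1.86 TPM in T+ and 65.8, 82.3 and 72.4 TPM in SOX17+ libraries (log2 -1.16 ± 0.13, adjusted p = 0.0002). It was above T+ in every double-positive library and far under SOX17+. With a pseudocount of 0.1 the adjusted p was 0.054. Primitive blood genes needed a median of 0.107 over 10 genes, with 7 of 11 lower on the log2 scale, against 5.44% of all genes. The embryonic globin Hbb-bh1 stood at 1.66, 2.56 and 5.14 TPM in SOX17+/T+, 1.06, 1.64 and 1.31 TPM in T+ and 51.9, 75.8 and 141 TPM in SOX17+ (log2 -1.84 ± 0.31, adjusted p = 0.0053). In SOX17+/T+ and SOX17+ its libraries were spread more widely than in T+, and on the linear scale it was not called. The log2 count of this list fell to 3 without SOX17+/T+ replicate 1 and to 4 without replicate 2.

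Gata1, the erythroid and megakaryocyte factor, went the other way from the globins. It stood at 4.97, 4.56 and 6.46 TPM in SOX17+/T+, 0.189, 0.208 and 0.606 TPM in T+ and 5.88, 8.58 and 10.2 TPM in SOX17+ libraries (log2 0.86 ± 0.15, adjusted p = 0.0035), a weight of 0.633. Double-positive and SOX17+ libraries overlapped and both stood above T+. With a pseudocount of 10 Gata1 was not called (adjusted p = 0.13). Of the 15 endothelial genes, 10 were higher and 3 lower in SOX17+/T+ than in T+ on the log2 scale. The endothelial marker Kdr was highest in T+, at 22.2 TPM in SOX17+/T+, 27.9 in T+ and 18.6 in SOX17+. The 10 endothelial genes that differ 2-fold were all higher in SOX17+, and 8 of these 10 needed a weight between 0.257 and 0.315. Among these, the vascular cadherin Cdh5 stood at 4.99 ± 0.589 TPM in SOX17+/T+, 0.643 ± 0.137 TPM in T+ and 15.5 ± 1.77 TPM in SOX17+ and the receptor Tie1 at 3.73 ± 0.65 TPM in SOX17+/T+, 0.355 ± 0.15 TPM in T+ and 11.9 ± 1.49 TPM in SOX17+. Flt1, a VEGF receptor, needed 0.683 (62.7 ± 7.84 TPM in SOX17+/T+, 11.2 ± 0.813 TPM in T+ and 86.7 ± 9.5 TPM in SOX17+) and the blood and endothelial factor Tal1 needed 0.124. On the linear scale 9 of the 15 endothelial genes were lower than the midpoint, against 5.57% of all genes. The endothelial count fell to between 2 and 3 when any 1 SOX17+/T+ library was left out.

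No weighted average of 2 means lies outside them, so for genes beyond both groups no mixture of the T+ and SOX17+ libraries gives the measured mean. A part played by cells that neither single-positive gate collected was not tested. On the log2 scale 118 genes (0.733%) lay above both and 142 (0.882%) below both. On the linear scale these were 107 (0.665%) and 87 (0.54%), and on both scales at once 95 (0.59%) and 78 (0.485%). Against T+ alone 2034 genes (12.6%) were higher and 2544 (15.8%) lower on the log2 scale, and against SOX17+ alone 2705 (16.8%) and 3189 (19.8%). Median-of-ratios scaling moved the split to 154 above and 122 below on the log2 scale, 135 and 68 on the linear scale and 121 and 64 on both, and quantile normalization moved the log2 split to 160 and 121. For comparison, without any test, all 3 SOX17+/T+ libraries stood above all 6 single-positive libraries in 250 genes (1.55%) and below them in 436 (2.71%). Among genes called on both scales this held for 90 of the 95 above and for all 78 below. Lack of overlap in a named gene picked from these calls is therefore not separate support. On both scales at once, 57 genes lay above and 34 below without SOX17+/T+ replicate 1, and 34 lay below without SOX17+/T+ replicate 2, 40 without T+ replicate 1 and 50 without T+ replicate 2. On the log2 scale 71 lay above without SOX17+/T+ replicate 1, and 89 and 94 below without SOX17+/T+ replicate 2 and T+ replicate 1. On the linear scale 65 lay above without SOX17+/T+ replicate 1, and below lay 38 and 36 without SOX17+/T+ replicates 1 and 2 and 42 and 52 without T+ replicates 1 and 2. The excursions were small. Of the 95 genes above both, 9 lay at least 1.5-fold from the closer group and 1, Nptx2, at least 2-fold, with a median level of 13.7 TPM in SOX17+/T+, 8.11 TPM in T+ and 7.97 TPM in SOX17+. Of the 78 genes below both, 5 lay at least 1.5-fold away and 1, the axial progenitor factor Nkx1-2, at least 2-fold, with a median level of 16.5 TPM in SOX17+/T+, 24.5 TPM in T+ and 19.8 TPM in SOX17+.

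**Figure D3:**
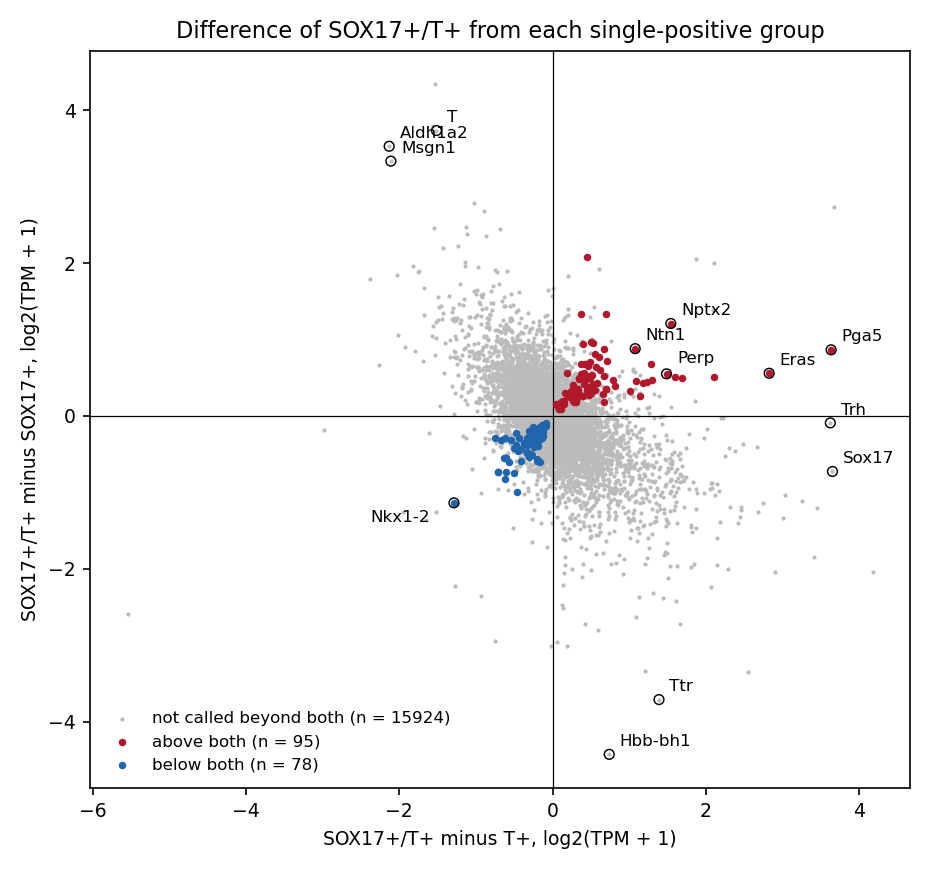
Difference of the SOX17+/T+ mean from T+ (horizontal axis) and from SOX17+ (vertical axis) in log2(TPM + 1), 1 point per tested gene. Red marks the 95 genes called above both groups and blue the 78 below both, on both scales; most points run from upper left to lower right, between the single-positive groups, and the red and blue points lie close to the origin except for a few named genes.

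Nptx2, Ntn1 and Pga5, which encode secreted proteins, stood furthest above both groups among the named genes. Nptx2 (chromosome 5, 144545902 to 144557478), a secreted pentraxin known from synapses, stood at 14.5, 11.8 and 16.2 TPM in SOX17+/T+, 3.92, 3.04 and 5.96 TPM in T+ and 5.79, 4.47 and 6.42 TPM in SOX17+ libraries. Every double-positive library exceeded every single-positive one, by 1.54 ± 0.18 over T+ (adjusted p = 6.4e-05) and 1.21 ± 0.18 over SOX17+ (adjusted p = 0.00029) on the log2 scale. Ntn1 (chromosome 11, 68209364 to 68400823), the guidance cue netrin-1, stood at 14.1, 10.7 and 16.2 TPM in SOX17+/T+, 5.52, 4.92 and 7.37 TPM in T+ and 7.89, 4.98 and 8.14 TPM in SOX17+. Its double-positive libraries too stood above all others, with differences of 1.08 ± 0.18 and 0.88 ± 0.18 (adjusted p = 0.001 and 0.0027). The extracellular matrix protein fibulin-2, Fbln2, stood at 25.8 ± 2.87 TPM in SOX17+/T+, 17.1 ± 0.682 TPM in T+ and 16.3 ± 3.17 TPM in SOX17+, and Shisa2, which holds back FGF and WNT receptors inside the cell, at 16.2 ± 2.44 TPM in SOX17+/T+, 11.2 ± 0.121 TPM in T+ and 9.47 ± 0.76 TPM in SOX17+.

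For some genes above both groups the T+ level was far the lowest. Perp (chromosome 10, 18845020 to 18857073), a membrane protein of desmosomes and a p53 target, stood at 53.9, 51.8 and 51.6 TPM in SOX17+/T+, 16.3, 18.9 and 19.2 TPM in T+ and 36.4, 34 and 35.9 TPM in SOX17+. It varied little within groups and exceeded SOX17+ by 0.55 ± 0.06 (adjusted p = 7.1e-06) and T+ by 1.49 ± 0.06 (adjusted p = 1.9e-09). Eras (chromosome X, 7924276 to 7928607), a Ras protein known from embryonic stem cells, stood at 13.2, 10.4 and 11.9 TPM in SOX17+/T+, 0.656, 0.867 and 0.889 TPM in T+ and 8.75, 7.25 and 7.06 TPM in SOX17+, 0.56 ± 0.09 above SOX17+ (adjusted p = 0.00038). Pga5, a pepsinogen, had 14.8, 10.7 and 19.4 TPM in SOX17+/T+, 0.265, 0.121 and 0.397 TPM in T+ and 7.41, 5.56 and 10.3 TPM in SOX17+, and its lowest double-positive library stood just above its highest SOX17+ library. AW551984, a gene named by a sequence tag, stood at 44.4 ± 5.89 TPM in SOX17+/T+, 17.6 ± 2.27 TPM in T+ and 27.3 ± 1.16 TPM in SOX17+.

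The remaining named genes above both were spread over metabolism, trafficking and non-coding RNA. They were Ass1, an enzyme of arginine synthesis (67.8 ± 4.21 TPM in SOX17+/T+, 48.6 ± 5.49 TPM in T+ and 48 ± 3.5 TPM in SOX17+), Asb4, a substrate adaptor of ubiquitin ligases (11.7 ± 1.31 TPM in SOX17+/T+, 7.26 ± 0.831 TPM in T+ and 7.29 ± 0.315 TPM in SOX17+), and Stxbp5 or tomosyn, which binds syntaxins (12 ± 0.777 TPM in SOX17+/T+, 8.11 ± 0.456 TPM in T+ and 7.97 ± 0.975 TPM in SOX17+). The long non-coding RNA Malat1 stood at 115, 114 and 96.4 TPM in SOX17+/T+, 75.5, 82.7 and 78.8 TPM in T+ and 75.4, 77.7 and 71.2 TPM in SOX17+. Every double-positive library stood above all others. Bc1, a short RNA, at 176 TPM in SOX17+/T+, 107 TPM in T+ and 107 TPM in SOX17+, and the mitochondrial tRNA mt-Te, at 134 TPM in SOX17+/T+, 91 TPM in T+ and 106 TPM in SOX17+, were also called, although TPM of such short genes is imprecise. By TPM the largest excursions were in the ribosomal protein genes Rpl41 (3901 ± 86.5 TPM in SOX17+/T+, 3689 ± 67.2 TPM in T+ and 3663 ± 23.3 TPM in SOX17+) and Rpl12 (3675 ± 26.1 TPM in SOX17+/T+, 3551 ± 38 TPM in T+ and 3286 ± 11.4 TPM in SOX17+), which are under 1.5-fold and share sequence with many pseudogenes. Mt1, a metallothionein, was called above both with overlapping libraries (138, 163 and 164 TPM in SOX17+/T+, 117, 125 and 127 TPM in T+ and 101, 124 and 139 TPM in SOX17+).

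**Figure D4:**
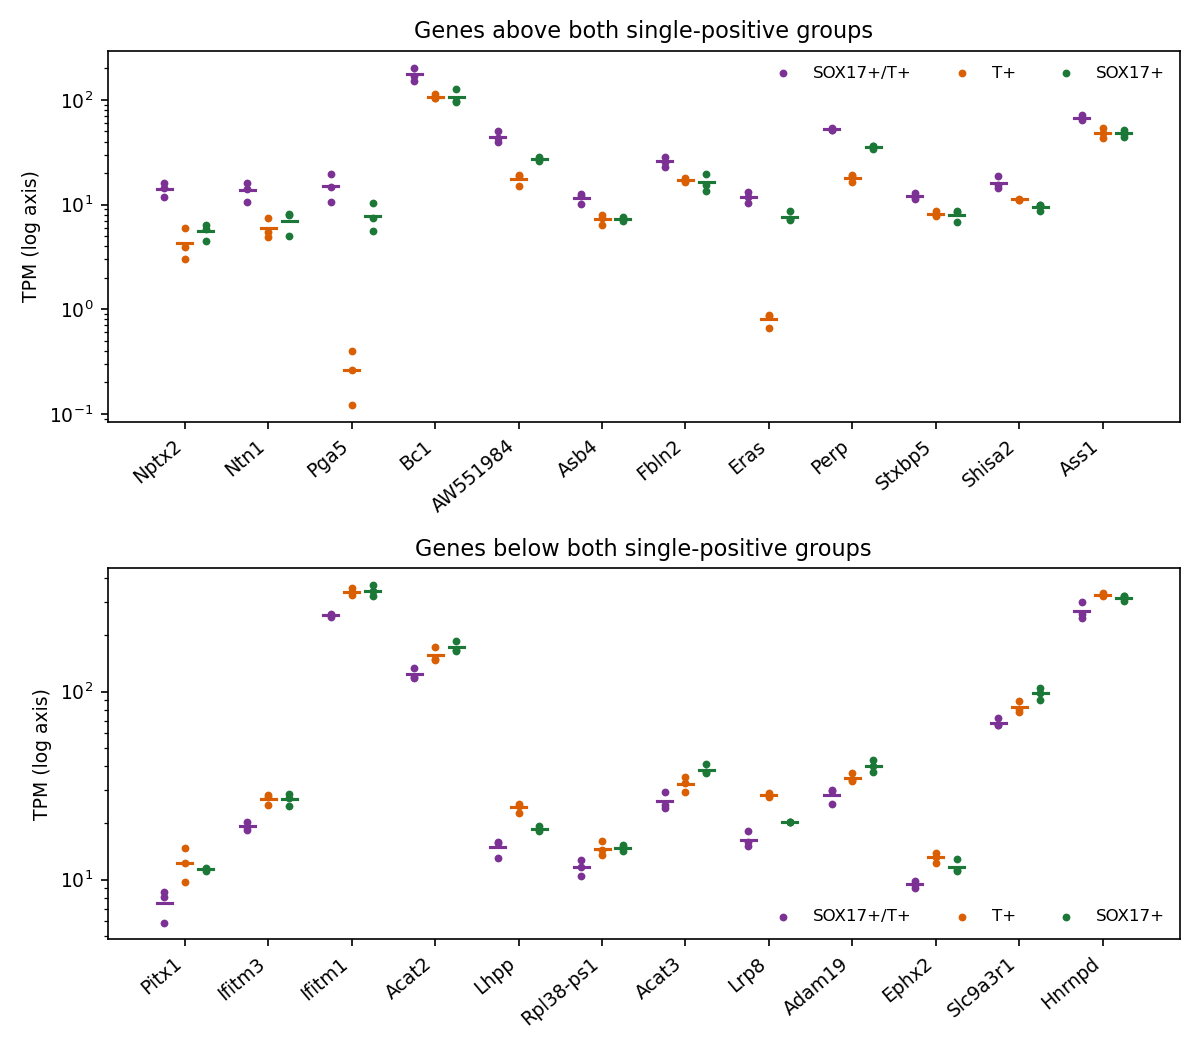
TPM (log axis) of the 12 named genes above both groups (upper panel) and the 12 below both (lower panel), ordered by their difference from the closer group. Each point is a library, horizontal bars are group means, and SOX17+/T+ (purple) stands left of T+ (orange) and SOX17+ (green); purple points lie above or below the others in every panel column, with small gaps for most genes.

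Some of these genes are high in the mESC libraries, among them Nptx2 (44.4 ± 1.79 TPM in mESC), Eras (71.9 ± 1.66 TPM), Fbln2 (284 ± 29.9 TPM), Ass1 (319 ± 9.13 TPM) and Bc1 (916 ± 39.7 TPM). Those libraries also held fibroblast transcripts, with Col1a1 at 374 TPM and Acta2 at 1006 TPM, against 23.4 and 11.7 TPM in SOX17+/T+. The part of the embryonic fibroblasts of the culture in mESC levels was not tested. The mESC mean stood above all sorted means in 36 of the 95 genes above both groups and in 36 of the 78 below both, against 50.6% of all tested genes. Defining markers of undifferentiated cells were near the single-positive levels in the double-positive libraries. Zfp42 stood at 1.51 TPM in SOX17+/T+, 2.28 in T+ and 0.847 in SOX17+, against 515 TPM in mESC, and Klf2 at 0.504 TPM in SOX17+/T+, 0.401 in T+ and 0.313 in SOX17+, against 338 TPM in mESC. Dppa5a, another such marker, stood at 4.29 TPM in SOX17+/T+, 7.61 in T+, 3.17 in SOX17+ and 2119 TPM in mESC. Of the 14 naive pluripotency genes, summed at 74.4 to 94.1 TPM in SOX17+/T+, 90.7 to 98.6 TPM in T+ and 75.3 to 86.5 TPM in SOX17+ libraries, 1 (Klf5) was above both groups on both scales and another (Esrrb) on the log2 scale only. Klf5 stood at 8.67 ± 0.88 TPM in SOX17+/T+, 5.94 ± 0.787 TPM in T+ and 6.99 ± 0.58 TPM in SOX17+ and Esrrb at 1.1 ± 0.169 TPM in SOX17+/T+, 0.629 ± 0.0706 TPM in T+ and 0.726 ± 0.289 TPM in SOX17+, against 221 and 319.8 TPM in mESC. Nr0b1 and Dppa3, 2 other members, were listed at 0 in all SOX17+/T+ libraries.

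Genes below both groups included transcription factors, membrane proteins and lipid enzymes. Nkx1-2 (chromosome 7, 132594878 to 132599637), a homeobox factor of axial progenitors, stood at 2.49, 2.16 and 3.11 TPM in SOX17+/T+, 10.8, 6.55 and 6.42 TPM in T+ and 7.54, 5.47 and 7.7 TPM in SOX17+ libraries. Every double-positive library was lower than all 6 others, with differences of -1.29 ± 0.18 from T+ (adjusted p = 0.00017) and -1.14 ± 0.18 from SOX17+ (adjusted p = 0.00032). Pitx1 (chromosome 13, 55825051 to 55836192), a homeobox factor of the hindlimb field, stood at 5.9, 8.63 and 8.07 TPM in SOX17+/T+, 9.73, 14.7 and 12.3 TPM in T+ and 11.2, 11.5 and 11.4 TPM in SOX17+, with differences of -0.63 ± 0.14 from T+ and -0.55 ± 0.14 from SOX17+ (adjusted p = 0.0039 and 0.0068). Its double-positive libraries too were lower than all 6 others. Rhox5, another homeobox gene, was low throughout, at 2.33 ± 0.443 TPM in SOX17+/T+, 4.15 ± 0.876 TPM in T+ and 4.87 ± 0.546 TPM in SOX17+.

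The interferon-induced membrane proteins Ifitm1 and Ifitm3 were lower together. Ifitm1 (chromosome 7, 140967221 to 140969825) stood at 260.2, 249 and 255 TPM in SOX17+/T+, 354, 325 and 339 TPM in T+ and 369, 323 and 342 TPM in SOX17+ (log2 -0.41 ± 0.04 against T+ and -0.43 ± 0.04 against SOX17+, adjusted p = 1.5e-05 and 7.2e-06). Ifitm3 (141009586 to 141010770 on the same chromosome) stood at 19.2 ± 0.975 TPM in SOX17+/T+, 26.8 ± 1.71 TPM in T+ and 26.7 ± 2.02 TPM in SOX17+. The single-positive groups were nearly equal for both genes, and these neighbours are similar in sequence, so reads may be shared between them. Lrp8, a lipoprotein and reelin receptor, stood at 15.9, 15.1 and 18 TPM in SOX17+/T+, 28.9, 27.5 and 28.3 TPM in T+ and 20.2, 20.1 and 20.2 TPM in SOX17+, with no overlap between any of the groups. Others were Lhpp, a phosphatase (14.8 ± 1.61 TPM in SOX17+/T+, 24.2 ± 1.45 TPM in T+ and 18.7 ± 0.566 TPM in SOX17+), the metalloprotease Adam19 (28.3 ± 2.53 TPM in SOX17+/T+, 34.7 ± 1.79 TPM in T+ and 40.4 ± 2.89 TPM in SOX17+), the membrane scaffold Slc9a3r1 (68.3 ± 3.32 TPM in SOX17+/T+, 82.4 ± 5.87 TPM in T+ and 98.1 ± 7.1 TPM in SOX17+), the epoxide hydrolase Ephx2 (9.42 ± 0.423 TPM in SOX17+/T+, 13.1 ± 0.825 TPM in T+ and 11.7 ± 0.999 TPM in SOX17+) and the ribosomal pseudogene Rpl38-ps1, whose reads cannot be told from those of its parent gene.

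By TPM the largest shortfalls below both groups were in Scd2, a fatty acid desaturase (639.8 ± 39.3 TPM in SOX17+/T+, 724 ± 36.8 TPM in T+ and 794 ± 25.9 TPM in SOX17+), in Ifitm1, and in the RNA-binding protein Hnrnpd (267 ± 27.9 TPM in SOX17+/T+, 327 ± 6.1 TPM in T+ and 316 ± 11.7 TPM in SOX17+). The secreted proteins Gpx3, a glutathione peroxidase, and Cst3, cystatin C, stood at 142 and 142 TPM in SOX17+/T+, 163 and 165 TPM in T+ and 187 and 215 TPM in SOX17+. Acat2 (chromosome 17, 12942890 to 12960747), which condenses acetyl-CoA at the start of sterol synthesis, stood at 120.0, 118 and 133 TPM in SOX17+/T+, 148, 148 and 172 TPM in T+ and 167, 164 and 186 TPM in SOX17+ (log2 -0.33 ± 0.07 and -0.47 ± 0.07, adjusted p = 0.0024 and 0.0001). Its neighbour Acat3 was lower as well (26.1 ± 2.7 TPM in SOX17+/T+, 32.4 ± 3.05 TPM in T+ and 38.3 ± 2.4 TPM in SOX17+) and is nearly the same in sequence, so the pair counts as 1 uncertain observation.

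Cholesterol synthesis genes were lower in SOX17+/T+ than in SOX17+ in 20 of 21 cases, against 19.8% of all genes, and mostly not called against T+, where 4 were lower and 1 was higher. Of the 21 genes, 19 were lower than the midpoint on the log2 scale and 16 on the linear scale, against 5.44% and 5.57% of all genes. The remaining genes were not called. The list median was -0.36 on the log2 scale against -0.02 over all genes. The mean was below both single-positive means for 16 of the 21. Called below both were 3 on the log2 scale and 1 on the linear scale, against 0.882% and 0.54% of all genes. The list's summed level was 1799 to 2198 TPM in SOX17+/T+, 2059 to 2353 TPM in T+ and 2854 to 3174 TPM in SOX17+ libraries. Cyp51 (chromosome 5, 4081145 to 4104746), the sterol demethylase, was below both groups on both scales, at 88.5, 83.1 and 101 TPM in SOX17+/T+, 106, 102 and 113 TPM in T+ and 117, 115 and 129 TPM in SOX17+ (log2 -0.24 ± 0.06 and -0.41 ± 0.06, adjusted p = 0.013 and 0.00029). Its double-positive libraries lay under all others, by a small margin. The squalene synthase Fdft1 was below both on the log2 scale only, at 57.2, 53.5 and 66.3 TPM in SOX17+/T+, 67.7, 66.2 and 77.2 TPM in T+ and 77.2, 77 and 91 TPM in SOX17+. Insig1, the sensor that holds the pathway back when sterols are plentiful, was level with T+ at 106, 94.1 and 116 TPM in SOX17+/T+ and 103, 100.5 and 109.9 TPM in T+, against 215, 216 and 236 TPM in SOX17+ (log2 difference from the midpoint -0.53 ± 0.06, adjusted p = 0.00012).

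The list also moved with the replicate number. Replicate 3 was the highest library of its group in 19 of the 21 genes in SOX17+/T+, 17 in T+ and 19 in SOX17+. Between libraries of the same number, SOX17+/T+ was below the linear midpoint in all 21 genes for each number, and below both single-positive libraries in 17, 19 and 14 genes for replicates 1, 2 and 3. The share of all genes below in these ways, or by their means, is not given here. The median relative linear difference from the midpoint over all genes was -0.026. Most of the 21 genes moved together, so these counts are not separate observations. Without SOX17+/T+ replicate 1 or without replicate 2, the count of genes lower on the log2 scale fell to 11 and that on the linear scale to 6. What replicate numbers share is not given in the labels, and their part in the result was not tested.

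**Figure D5:**
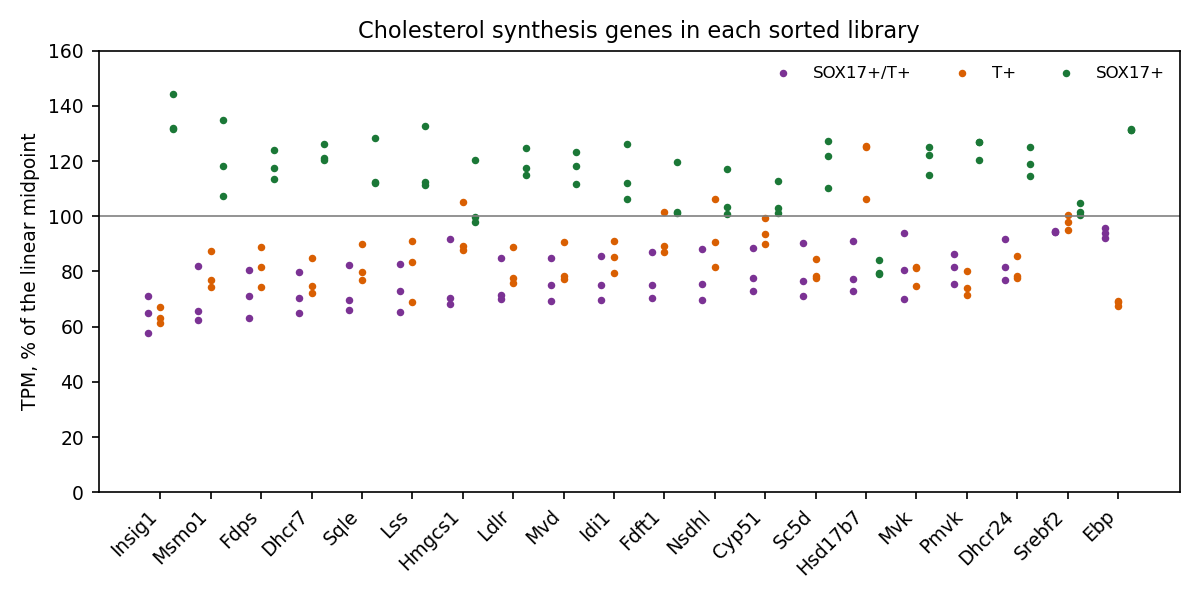
TPM of 20 cholesterol synthesis genes in each sorted library, as percent of the midpoint of the T+ and SOX17+ means on the linear scale (the horizontal line). SOX17+/T+ libraries (purple) lie below the line for all genes shown, mostly at or under the T+ libraries (orange), while SOX17+ libraries (green) lie above it for all but Hsd17b7 and 2 libraries of Hmgcs1.

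Promoters of these genes share a sequence feature. The list holds genes of 1 pathway, so a shared motif is not separate support for their lower levels. Sterol synthesis genes are activated by SREBP factors, which bind sterol regulatory elements beside NF-Y, the factor of the CCAAT box. In RefSeq promoters (GRCm38.p6, 250 bases before to 50 after the start), 15 of the 21 genes had an entry, and all 15 held the letters CCAAT on either strand, against 41.1% of the 27025 genes in that table. The element TCACNCCAC was found in 1 of the 15, Hmgcs1, against 1.44% of genes. Among genes above both groups, 18 of the 62 with a promoter held CCAAT, and among those below both, 30 of 45. The promoters of Cyp51 (chr5:4104648-4104947, minus strand), Insig1 (chr5:28071162-28071461, plus strand) and Hmgcs1 (chr13:119690101-119690400, plus strand) show the motifs in capitals, CCAAT or its complement ATTGG, and the element TCACCCCAC in Hmgcs1. The promoter of Eras (chrX:7928558-7928857, minus strand), a gene above both groups, is given beside them and holds neither.
Cyp51: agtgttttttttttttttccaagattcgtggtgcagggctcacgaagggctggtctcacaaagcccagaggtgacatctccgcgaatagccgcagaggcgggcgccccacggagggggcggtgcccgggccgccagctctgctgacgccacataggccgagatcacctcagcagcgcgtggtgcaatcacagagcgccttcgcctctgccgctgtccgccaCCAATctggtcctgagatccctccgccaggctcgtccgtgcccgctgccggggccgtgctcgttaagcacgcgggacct
Insig1: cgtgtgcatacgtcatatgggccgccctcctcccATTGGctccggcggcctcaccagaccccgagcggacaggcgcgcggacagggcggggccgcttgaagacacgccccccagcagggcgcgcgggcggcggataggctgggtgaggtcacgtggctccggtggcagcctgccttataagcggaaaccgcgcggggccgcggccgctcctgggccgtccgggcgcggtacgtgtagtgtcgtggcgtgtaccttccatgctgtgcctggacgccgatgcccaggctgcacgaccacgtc
Hmgcs1: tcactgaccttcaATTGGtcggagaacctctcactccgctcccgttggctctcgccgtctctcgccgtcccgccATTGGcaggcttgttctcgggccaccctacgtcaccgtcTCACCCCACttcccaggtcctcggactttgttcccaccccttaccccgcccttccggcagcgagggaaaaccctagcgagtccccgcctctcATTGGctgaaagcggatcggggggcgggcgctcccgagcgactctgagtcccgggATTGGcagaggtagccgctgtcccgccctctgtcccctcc
Eras: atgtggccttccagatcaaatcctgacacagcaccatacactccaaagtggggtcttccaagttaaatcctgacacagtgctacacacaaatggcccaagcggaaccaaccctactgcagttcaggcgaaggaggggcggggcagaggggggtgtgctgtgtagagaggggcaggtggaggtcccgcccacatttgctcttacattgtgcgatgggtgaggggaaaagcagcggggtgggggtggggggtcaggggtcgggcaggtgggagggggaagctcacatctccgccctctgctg
A match of letters is not a binding site, and the motifs were not tested against expression.

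In the p53 list 4 of 16 genes were higher on both scales, against 4.43% of all genes on the log2 scale and 1.93% on the linear scale, and the rest were not called. Besides Perp these were Pmaip1, Cdkn1a and Zmat3, which stood at T+ levels and above SOX17+, as for Pmaip1 with 16.4, 16.2 and 15.4 TPM in SOX17+/T+, 16.3, 16 and 15.7 TPM in T+ and 7.95, 7.9 and 7.2 TPM in SOX17+. Without SOX17+/T+ replicate 2 the linear count was 2. Among 17 BMP genes the ligands Bmp2, Bmp4, Bmp5 and Bmp7 were higher than the log2 midpoint and 1 gene was lower, but on the linear scale only Bmp2 and Bmp5 were higher and 2 genes were lower. Bmp5 was level with T+ (18.9 ± 2.03 TPM in SOX17+/T+, 19 ± 1.82 in T+ and 8.53 ± 0.708 in SOX17+). In the NODAL list the co-receptor Cfc1 was higher on both scales (278 ± 4.04 TPM in SOX17+/T+, 303 ± 16.4 TPM in T+ and 159 ± 13.1 TPM in SOX17+), and the inhibitor Lefty1 was lower on both. With a pseudocount of 0.1 neither was called on the log2 scale (adjusted p = 0.56 and 0.36). Of 18 migration and guidance genes, 6 were higher and 4 lower than the log2 midpoint, and 3 and 5 on the linear scale. Over all genes the shares were 4.43% and 5.44% on the log2 scale and 1.93% and 5.57% on the linear scale. Ntn1 stood above both groups and the chemokine Cxcl12 was lower than the midpoint at 1.99 ± 0.302 TPM in SOX17+/T+, 2.59 ± 0.246 TPM in T+ and 8.43 ± 1.23 TPM in SOX17+.

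Of the 19 cell cycle genes, 4 were higher and 4 lower than the log2 midpoint, and 11 were not called. On the linear scale 2 were higher, 4 lower and 13 not called. Over all genes the shares higher and lower were 4.43% and 5.44% on the log2 scale and 1.93% and 5.57% on the linear scale. The linear count of lower genes fell to 1 without SOX17+/T+ replicate 1 and also without replicate 2. Mcm2 and Mcm5, parts of the replicative helicase, were below both groups on both scales, Mcm5 with 103, 95 and 106 TPM in SOX17+/T+, 128, 111 and 118 TPM in T+ and 117, 112 and 125 TPM in SOX17+. The difference was small, and every double-positive library was below all others. The log2 midpoint call was lost in 2 alternatives for Mcm2 and in 3 for Mcm5. Top2a and Cdkn1a were higher than the midpoint on both scales, and the inhibitor Cdkn1c (222 ± 16.2 TPM in SOX17+/T+, 185 ± 23 TPM in T+ and 413 ± 10.6 TPM in SOX17+) and cyclin Ccnb2 were lower. The immediate-early gene Jun, a member of the list of genes that respond to dissociation, was above both (40.3, 36.3 and 40.6 TPM in SOX17+/T+, 30.8, 31.1 and 35.4 TPM in T+ and 31.2, 27 and 29.1 TPM in SOX17+). In that list 4 of 18 genes were higher than the log2 midpoint and 1 than the linear one, against 4.43% and 1.93% of all genes. The list's log2 count was 1 without SOX17+/T+ replicate 2 and with the 9 sorted libraries alone. Its summed level was 1401 to 1462 TPM in SOX17+/T+, 1371 to 1399 TPM in T+ and 1384 to 1537 TPM in SOX17+ libraries. Its part in the other results was not tested.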

How the data were processed

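Messenger RNA was sequenced with 100 bp paired-end reads, and the submitters' processing notes name cutadapt, STAR, StringTie and the builds mm10 and GRCm38, with no roles or versions. No source used here names the annotation release. TPM values were deposited by the authors in a single table with a column per library. There, 282 empty cells were set to 0 and 11 genes split over rows were summed. TPM have no counts, so values were tested as log2(TPM + 1), with a pseudocount of 1, by limma 3.58.1 in R 4.3.3 (4 group means, 12 libraries, eBayes with trend and robust). The linear fit used TPM divided by the gene mean over the 9 sorted libraries. Tests were 2-sided, adjusted by the Benjamini-Hochberg method over 16097 genes and called under 0.05. The steps were tested on simulated data.

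Lists (33, holding 446 genes) and members were chosen with earlier results of these data known, and lists were counted, not tested. Named genes are the reporters, the 12 called genes furthest on the log2 scale and the 6 furthest in TPM beyond both groups each way (at least 10 TPM), the 6 furthest from the midpoint and from the mixture each way, up to 4 called members per list, members beyond both groups and cell type markers. Cer1, Dll1, Pcdh19, Mesp2, Foxa1, Foxa3, Ccnb2, Hmgcs1, Hsd17b7, Nr0b1 and Dppa3 were named after their values were seen. Alternatives were the pseudocount, low-value filter, scaling, moderation, threshold, replicate block and leaving out each sorted library. Some genes that the rule names are not reported here, although counts over lists include them.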

Additional observations from a re-analysis of the deposited data

How the results depend on the processing

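At an adjusted p under 0.01 there were 313 genes higher and 312 lower than the log2 midpoint, 89 and 274 on the linear scale, 44 above and 37 below both groups on the log2 scale, 38 and 10 on the linear scale, 37 and 10 on both, 80 higher and 212 lower than the single-weight mixture, 1462 lower than T+ (2544 at 0.05) and 1771 higher than SOX17+ (2705 at 0.05). Asking for at least 1.5-fold against each group left 11 above and 7 below on the log2 scale, 28 and 14 on the linear scale and 9 and 5 on both. With no filter on low values, 580 genes were lower than the log2 midpoint, and 92, 57 and 51 genes lay below both groups on the log2, the linear and both scales. Leaving out 1 library at a time gave 372 to 708 genes higher and 430 to 887 lower than the log2 midpoint, 125 to 281 and 336 to 954 on the linear scale, 71 to 146 above and 89 to 190 below both groups on the log2 scale, 65 to 127 and 36 to 100 on the linear scale, 57 to 115 and 34 to 89 on both, and 110 to 322 higher and 276 to 797 lower than the mixture. Against T+ the range was 1691 to 2085 higher and 1870 to 2654 lower, and against SOX17+ it was 2191 to 2666 higher and 2711 to 3154 lower. The lowest counts against the midpoint, the mixture and both groups came without SOX17+/T+ replicate 1 or 2, and the fitted weight ran from 0.372 without SOX17+ replicate 2 to 0.478 without T+ replicate 3. Over genes that differ 4-fold the fitted weight was 0.402 and the median weight of T+ genes 0.653. The replicate numbers of the labels do not pair the libraries by the rule used here, since not every same-numbered pair deviated together at r over 0.1: SOX17+/T+ and T+ libraries did so at r = 0.204, 0.149 and 0.242, SOX17+/T+ and SOX17+ libraries at r = 0.0463, 0.178 and 0.224 and T+ and SOX17+ libraries at 0.0253, 0.0333 and 0.148 across genes. Every SOX17+/T+ library correlated best with its own number in both groups, a hint from the data and not the design. With the number as a replicate block, 694 genes were higher and 1455 lower than the linear midpoint (311 and 896 without it), 181 lay above both groups on the log2 scale, 226 above and 198 below on the linear scale, 156 and 164 on both, and 651 were higher and 1303 lower than the mixture. Of 135 called named genes, 73 stayed called in the same direction under every alternative. The direction changed for Msgn1 with a pseudocount of 10 (-0.24). It also changed for genes that were not called: Col1a1 without SOX17+/T+ replicate 1 (0.011), Kit without SOX17+/T+ replicate 3 (-0.011, and up to 0.083 without replicate 2), Tbx6 without SOX17+/T+ replicate 2 (0.024, and down to -0.22 without replicate 1) and with a pseudocount of 0.1 (0.23), Lefty2 with 0.1 (0.35), and Pou5f1 (-0.18) and Ncam1 (-0.0032) with 10. The cause was not tested. TPM carry no counts, so the precision of low values could not be set.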
